A study of Mus musculus with 10 samples.

Results

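The cytotoxic effector genes described here were *Gzma*, *Gzmb*, *Gzmk*, *Prf1*, *Nkg7*, *Ifng*, *Ccl5* and *Klrd1*, a list of 8 gene symbols that were all present among the 31053 genes of the count matrix. They were measured by droplet single-cell RNA sequencing of CD45+ immune cells from whole mouse brain, in WT, Nlrp3KO, APP/PS1 and Nlrp3KO APP/PS1 littermates. WT and Nlrp3KO mice were profiled at 3, 6 and 9 months, and both APP/PS1 groups at 3 and 9 months, with 1 library per genotype and age from the pooled brains of 3 mice, which gave 10 libraries. APP/PS1 mice carry transgenes for mutant human amyloid precursor protein and presenilin 1 and deposit amyloid in the brain, and the Nlrp3 deletion is present in all cells of the body. Of 45472 cells, the authors annotated 1598 as T cells, 548 as NK cells, 204 as NKT cells and 157 as type 2 innate lymphoid cells (ILC2).

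Cytotoxic lymphocytes kill target cells by releasing granules. Perforin, the product of *Prf1*, opens pores in the target membrane through which granzymes, serine proteases such as those encoded by *Gzma*, *Gzmb* and *Gzmk*, enter the cell. *Nkg7* encodes a membrane protein of these granules that takes part in their release. *Klrd1* encodes CD94, a receptor chain of NK cells and of some CD8 T cells, and activated lymphocytes secrete interferon gamma (*Ifng*) and the chemokine CCL5 (*Ccl5*). T cells and NK cells are rare in the healthy brain, in which microglia are the main CD45+ population.

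In the GRCm38 annotation of GENCODE, all 8 are protein-coding genes. *Gzma* (chr13:113093825-113100981, minus strand) and *Gzmk* (chr13:113171608-113225908, minus strand) are neighbors separated by 70.6 kb, whereas *Gzmb* lies on chr14:56258838-56262260 (minus strand). *Prf1* (chr10:61297833-61304680) and *Ifng* (chr10:118441046-118445892) are both on the plus strand of chromosome 10. *Nkg7* is at chr7:43437073-43438249 (plus strand), *Klrd1* at chr6:129591782-129598775 (plus strand) and *Ccl5* at chr11:83525778-83530518 (minus strand). Promoter windows of RefSeq (GRCm38.p6), which span 250 bases before to 50 bases after a start site, were found for 6 of the 8 genes, not for *Ccl5* and *Klrd1*. Those of the granule genes are shown because these genes divided T cells from NK cells, and because T-box factors (T-bet and Eomes) and RUNX factors are known to drive cytotoxic genes. Capitals mark the T-box core AGGTGT and the RUNX core TGTGGT on either strand, the reverse complements being ACACCT and ACCACA.
*Gzma*, chr13:113100932-113101231, minus strand: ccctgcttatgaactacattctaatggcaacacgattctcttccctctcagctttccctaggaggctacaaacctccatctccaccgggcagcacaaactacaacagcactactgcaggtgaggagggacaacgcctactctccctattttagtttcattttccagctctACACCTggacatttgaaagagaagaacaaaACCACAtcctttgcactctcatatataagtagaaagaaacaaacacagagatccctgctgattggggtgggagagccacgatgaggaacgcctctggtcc
*Gzmk*, chr13:113180916-113181215, minus strand: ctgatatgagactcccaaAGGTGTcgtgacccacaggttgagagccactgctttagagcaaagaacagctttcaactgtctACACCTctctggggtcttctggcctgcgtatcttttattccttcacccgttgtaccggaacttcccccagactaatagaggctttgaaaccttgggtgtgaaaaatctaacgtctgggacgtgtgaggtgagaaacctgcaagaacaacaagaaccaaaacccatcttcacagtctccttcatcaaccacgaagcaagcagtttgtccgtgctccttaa
*Gzmb*, chr14:56262285-56262584, minus strand: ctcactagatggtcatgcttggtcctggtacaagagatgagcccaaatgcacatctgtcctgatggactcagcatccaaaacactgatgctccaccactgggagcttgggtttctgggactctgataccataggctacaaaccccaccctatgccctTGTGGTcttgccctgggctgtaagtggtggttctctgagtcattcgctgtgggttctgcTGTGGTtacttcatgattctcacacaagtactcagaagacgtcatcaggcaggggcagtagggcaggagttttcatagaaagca
*Prf1*, chr10:61297586-61297885, plus strand: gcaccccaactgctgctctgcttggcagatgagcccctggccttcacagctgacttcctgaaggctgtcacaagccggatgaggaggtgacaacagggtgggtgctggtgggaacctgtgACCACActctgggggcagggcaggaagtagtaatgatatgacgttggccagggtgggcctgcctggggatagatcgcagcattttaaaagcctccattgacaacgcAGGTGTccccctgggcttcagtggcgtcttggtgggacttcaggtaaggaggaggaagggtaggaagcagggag

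The *Gzma*, *Prf1* and *Nkg7* windows each held 1 match of each motif, that of *Gzmk* held 2 T-box and 0 RUNX matches, that of *Gzmb* held 0 T-box and 2 RUNX matches, and that of *Ifng* held neither. The start of the *Gzmk* window lies inside the longer gene body of GENCODE, and the *Gzmb* window lies wholly before the gene body given above. The first bases after the start site were found in a GENCODE transcript for *Gzma*, *Nkg7* and *Ifng*, but not for *Gzmb*, *Gzmk* and *Prf1*. Of all 32851 RefSeq windows of this length, 13.7% held the T-box core and 16.8% the RUNX core, so these matches describe the letters only.

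The targeted gene was measured first. No *Nlrp3* UMI (a tag that marks 1 captured RNA molecule) was counted in any of the 5 Nlrp3KO libraries, and the 5 Nlrp3WT libraries held between 32.0 and 48.8 *Nlrp3* counts per 1000000 UMIs (CPM) over all cells. In T cells, *Nlrp3* was counted only in the WT library of 6 months and the APP/PS1 library of 9 months. Libraries held between 12440818 and 40682967 UMIs. T cells numbered from 27 in the WT library of 3 months to 504 in the APP/PS1 library of 9 months, and no NKT cell was annotated in the libraries of 6 months. The annotation gives each age its own batch, and the effects of the 2 cannot be told apart. Median UMIs per cell were close in T cells (5810), NK cells (5989), NKT cells (5705) and ILC2 (5622). Of 45225 barcodes, 246 occurred in more than 1 library, among them 1 shared by lymphocytes.

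The annotated cell types were checked against their markers. T cells held 730 CPM of *Cd3e* and 8.0 CPM of *Ncr1*, an activating receptor of NK cells, which reached 693 CPM in NK cells. Of the other NK markers, *Klrb1c* (482 and 10.7 CPM), *Klre1* (773 and 59.7 CPM) and *Tyrobp* (2326 and 155 CPM) were higher in NK than in T cells. *Eomes* did not separate them, with 65.8 CPM in NK cells and 62.3 CPM in T cells. NK cells held 126 CPM of *Cd3e*, and those with a *Cd3e* or *Trac* UMI ranged from 5.81% of the NK cells in the WT library of 6 months to 31.3% in the APP/PS1 library of 9 months. NKT cells resembled T cells in *Cd3e* (743 CPM) and *Trac* (410 CPM), had the highest *Zbtb16* level of the 4 types (37.6 CPM), and held 43.6 CPM of the NK receptor *Klrb1c*, compared to 482 CPM in NK cells. ILC2 held 901 CPM of *Gata3* and 588 CPM of *Il1rl1*. The summed level of 6 microglial markers in T cells ranged from 72.3 to 3082 CPM between libraries (median 277) and was highest in the WT library of 6 months, in which 20.5% of T cells had a doublet score over 0.5. In NK cells it ranged from 16.4 to 3205 CPM (median 898). A doublet score over 0.5 was given to 5.94% of T cells and 10.4% of NK cells. The part of these markers in the values below was not tested. Leaving out cells of such a score moved the level of a member in T or NK cells of a library by over 1.5 times only for *Gzma* in T cells of the Nlrp3KO APP/PS1 library of 3 months (from 573 to 68.5 CPM) and of the WT library of 9 months (from 138 to 10.3 CPM).

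To determine which lymphocytes carried the effector genes, CPM were calculated from the UMIs summed over the cells of a type, within each library and over all libraries. The cell types are clusters of the same counts, so differences between them are described without a test. NK cells had the highest level of *Gzma*, *Gzmb*, *Prf1*, *Nkg7*, *Ifng*, *Ccl5* and *Klrd1*, and T cells had the highest level of *Gzmk*.

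**Figure D1:**
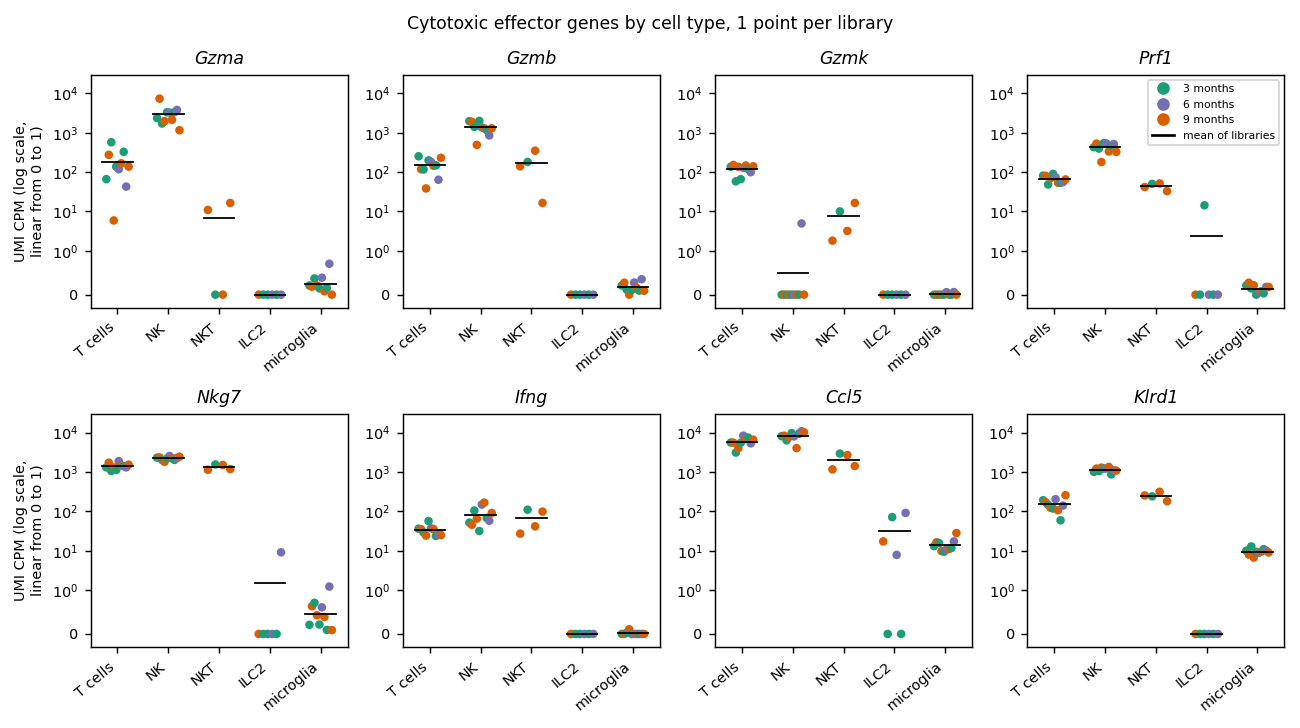
UMI CPM of the 8 genes (vertical axis, logarithmic above 1 and linear from 0 to 1) in T cells, NK cells, NKT cells, ILC2 and microglia, with 1 point per library that holds at least 10 cells of the type, colored by age, and a line at the mean of the libraries. *Gzmk* lay between 58.3 and 152 CPM in T cells and was at 0 in NK cells of 9 of the 10 libraries, whereas *Gzma* was higher in NK cells than in T cells of all 10 libraries.

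*Gzma*, which encodes a granzyme with trypsin-like activity, reached 3033 ± 1730 CPM in NK cells (SD, n = 10 libraries; lowest 1157, median 2808, highest 7329). In T cells it was 185 ± 168 CPM (SD, n = 10; lowest 5.92, median 138, highest 573). The highest T cell value, that of the Nlrp3KO APP/PS1 library of 3 months, was 68.5 CPM without cells of a doublet score over 0.5. The ranges did not overlap, and NK cells were higher in 10 of 10 libraries. This order held in 8 of 10 libraries for the NK cells without a *Cd3e* or *Trac* UMI, which were at 104 CPM in the WT library of 9 months (12 cells; T cells 138 CPM) and at 55.6 CPM in the Nlrp3KO library of 9 months (13 cells; T cells 167 CPM). Both exceptions rested on 1 T cell each, from the 16 T cells with the most *Gzma* UMIs. Without it, T cells were at 10.3 CPM (WT) and 20.7 CPM (Nlrp3KO), under these NK values. A *Gzma* UMI was found in 37.0% of NK cells and 4.63% of T cells, whose sequencing depth was close. NKT cells held 7 *Gzma* UMIs in all (5.99 CPM), and ILC2 held none, which allows up to 3.27 CPM.

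*Gzmb*, whose product cleaves caspases in target cells, was also higher in NK cells than in T cells of 10 of 10 libraries. NK cells held 1372 ± 485 CPM (SD, n = 10; lowest 492, median 1330, highest 1995) and T cells 150 ± 68.6 CPM (SD, n = 10; lowest 38.5, median 147, highest 252). The 4 NKT groups of at least 10 cells ranged from 16.5 to 350 CPM, overlapping with T cells but above those of the same library in 3 of 4 libraries. *Gzmb* was also counted in 7 of 28 cells annotated as mast cells and basophils (336 CPM over the 28).

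*Gzmk* showed the opposite pattern. T cells held 118 ± 33.2 CPM (SD, n = 10; lowest 58.3, median 133, highest 152), whereas NK cells held 3 UMIs in total, all in 1 cell of the WT library of 6 months. Of the 1349 *Gzmk* UMIs in the data set, 98.7% were in T cells, and 41.3% of T cells had at least 1. NKT cells held 6.84 CPM, and ILC2 none. Hence, for the neighboring genes on chromosome 13, 87.8% of *Gzma* UMIs were in NK cells and 11.8% in T cells.

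*Prf1* was counted at 426 ± 118 CPM in NK cells (SD, n = 10; lowest 180, median 449, highest 545) and at 67.2 ± 14.2 CPM in T cells (SD, n = 10; lowest 48.5, median 67.8, highest 90.0). These ranges did not overlap. NKT cells (44.1 ± 8.58 CPM, SD, n = 4) were lower than T cells of the same library in 3 of 4 libraries, with overlapping ranges.

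*Nkg7* was more evenly spread. It reached 2225 ± 218 CPM in NK cells (SD, n = 10), 1416 ± 255 CPM in T cells (SD, n = 10) and 1349 ± 215 CPM in NKT cells (SD, n = 4). NK cells were higher than T cells in 10 of 10 libraries although the ranges overlapped, and T cells and NKT cells exceeded each other in 2 libraries each. A UMI of *Nkg7* was found in 98.9% of NK cells, 84.2% of T cells, 99.0% of NKT cells and 1.27% of ILC2, lymphocytes that are not known to hold cytotoxic granules.

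*Klrd1* was at 1144 ± 145 CPM in NK cells (SD, n = 10), 152 ± 56.5 CPM in T cells (SD, n = 10) and 248 ± 54.8 CPM in NKT cells (SD, n = 4), above the T cells in each of the 4 libraries compared. The NK cells lay above the T cells in 10 of 10 libraries and above the NKT cells in the 4 libraries compared. Over those 4 libraries NKT and T cells did not overlap, but the lowest NKT group (181 CPM) was under the T cells of the WT library of 9 months (258 CPM), which held too few NKT cells to be compared.

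*Ccl5* was the secreted factor with the broadest signal, at 8278 ± 1986 CPM in NK cells and 5860 ± 1565 CPM in T cells (SD, n = 10 each), and NK cells were higher in 8 of 10 libraries. NKT cells held 2053 ± 890 CPM (SD, n = 4), under the T cells of each of the 4 libraries. *Ifng* was counted at 83.3 ± 44.9 CPM in NK cells, 33.1 ± 9.96 CPM in T cells (SD, n = 10 each) and 69.6 ± 41.3 CPM in NKT cells (SD, n = 4), and its ranges overlapped between these types. The share of T cells with an *Ifng* UMI fell from 15.4% to 5.51% when each cell was thinned to 1500 UMIs, so that depth limits how many cells were seen with this transcript.

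Lymphocytes were not the only source of these transcripts. The 17 cells annotated as migratory dendritic cells held 18532 CPM of *Ccl5*, above any lymphocyte type. *Klrd1* was counted in conventional type 2 dendritic cells (375 CPM, 189 cells) and plasmacytoid dendritic cells (359 CPM, 102 cells), above the 159 CPM of all T cells together, while no UMI of *Gzma*, *Gzmk* or *Ifng* was counted in either. *Nkg7* was counted in mast cells and basophils (446 CPM) and in the cells annotated as precursors (204 CPM, 50 cells).

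Within T cells the 8 genes differed in how their UMIs were spread over cells. Of the 1671 *Gzma* UMIs, 3 T cells held at least as many as all other T cells together, and the 16 T cells (1%) with the most UMIs held 89.3%. The T cell with the most held 378. In contrast, the same was reached by 37 cells for *Gzmb*, by 144 cells for *Prf1* and by 169 cells for *Gzmk*. In NK cells, 38 of 548 cells held at least as many *Gzma* UMIs as the rest. Without the top 1% of T cells, *Gzma* fell from 161 to 17.5 CPM, and *Gzmk* from 128 to 119 CPM.

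**Figure D2:**
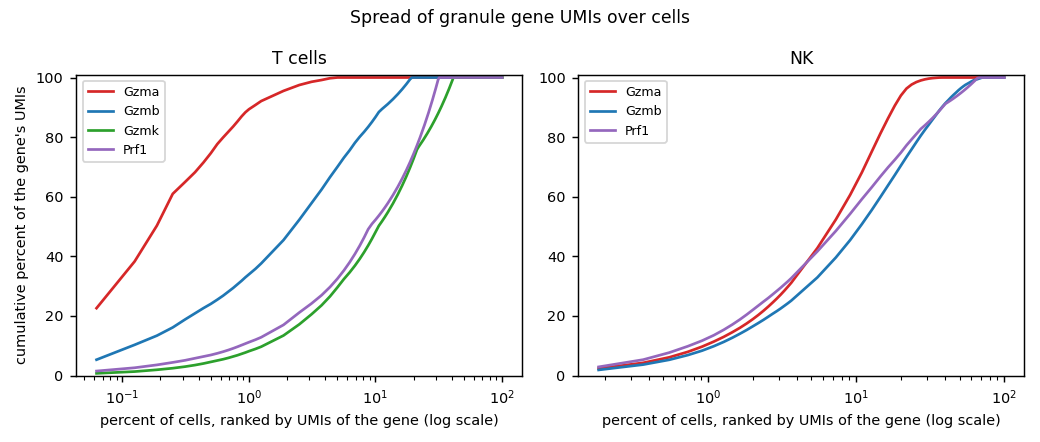
Cumulative percent of the UMIs of *Gzma*, *Gzmb*, *Prf1* and, in T cells only, *Gzmk* (vertical axis) against the percent of cells, ranked by UMIs of the gene (horizontal axis, logarithmic), in T cells (left) and NK cells (right). In T cells 1% of the cells held 89.3% of *Gzma* UMIs, 34.0% of *Gzmb* UMIs, 11.2% of *Prf1* UMIs and 8.19% of *Gzmk* UMIs.

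These 16 T cells came from 8 libraries and held at least 17 *Gzma* UMIs each. A *Cd3e* UMI was found in 11 of them (68.8%, compared to 97.4% of all T cells), a UMI of the NK receptor *Ncr1* in 4 (25.0%, compared to 0.814%), and one of *Tyrobp*, a signaling adaptor of NK and myeloid cells, in 9 (56.2%, compared to 14.1%). Their doublet score was over 0.5 in 4 cells (25.0%, compared to 5.94%). A *Cd8a* UMI was found in 10 of the 16 (62.5%, compared to 62.4% of all T cells) and one of *Trbc2* in 13 (81.2%, compared to 98.4%). The microglial gene *P2ry12* was counted in 4 (25.0%, compared to 10.6%). *Gzmb* was detected in 15 of the 16. Whether these are T cells, NK cells or doublets was not tested.

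A UMI of at least 1 of the 3 granzymes was found in 800 T cells (50.1%), and 581 of these (72.6%) had only 1 of the 3. *Prf1* and a granzyme were found together in 335 T cells (21.0%) and 292 NK cells (53.3%). Among the 74 T cells with a *Gzma* UMI, 56.8% had one of *Gzmb*, compared to 17.4% of the others, and 48.9% against 8.12% after thinning to 1500 UMIs. *Ccl5* was found in 92.9% of T cells with *Nkg7* and 14.3% of those without (91.2% and 35.7% after thinning), and the Pearson r of their log2 levels over the 1598 T cells was 0.79. These cells share libraries and depth, so this r is a description. A median of 3 of the 8 genes was detected per T cell, 5 per NK cell and 0 per ILC2.

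To ask which T cells held the effector genes, T cells with a *Cd8a* or *Cd8b1* UMI and none of *Cd4* (1013 cells) were compared to T cells with a *Cd4* UMI and none of *Cd8a* or *Cd8b1* (180 cells). The 7 libraries with at least 10 cells of each kind were fitted with edgeR's quasi-likelihood test on summed counts, with the library as a block and Benjamini-Hochberg adjustment over 4465 genes, and a gene was called where the adjusted p was below 0.05 with a log2 fold change beyond 1 in either direction. The 3 genes that chose the cells are not members. Of the 8 genes, 7 were called as higher in CD8 T cells, whereas 1.79% of all genes tested were (80 genes; 64 genes, or 1.43%, were lower). The median log2 fold change of the 8 genes was 2.80, and that of all genes tested was 0.01. *Prf1*, *Gzmb* and *Klrd1* had only 16, 22 and 27 UMIs in all 180 CD4 T cells. Their passing of the filter on low counts thus rested on the CD8 T cells, where they were high. The share of 7 of 8 members beside that of all genes is therefore a description.

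In edgeR, *Klrd1* was at 212 ± 60.2 CPM in CD8 and 20.6 ± 19.4 CPM in CD4 T cells (SD, n = 7), a log2 fold change of 3.38 (SE 0.26, adjusted p = 2.84e-11). *Gzmb* was higher by 3.18 on the log2 scale (SE 0.37, adjusted p = 1.13e-07), from 15.2 ± 17.5 to 188 ± 157 CPM. *Prf1* was higher by 2.89 (SE 0.33, adjusted p = 6.72e-08), from 12.7 ± 11.3 to 92.6 ± 19.0 CPM. All 3 were higher in CD8 T cells of 7 of 7 libraries, as were the 3 that follow. *Ccl5* rose from 1282 ± 694 CPM in CD4 to 7873 ± 2291 CPM in CD8 T cells, a log2 fold change of 2.79 (SE 0.15, adjusted p = 3.10e-15). *Nkg7* was 2.19 higher on the log2 scale (SE 0.14, adjusted p = 1.16e-13), and *Gzmk* 1.64 higher (SE 0.26, adjusted p = 4.04e-05), from 55.2 ± 47.2 to 177 ± 36.5 CPM.

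*Gzma* was higher by 2.80 on the log2 scale (SE 0.40, adjusted p = 7.26e-06), in 6 of 7 libraries. The 16 T cells that held 89.3% of the *Gzma* UMIs of T cells were not left out, and no fit without them was made. The exception was the Nlrp3KO APP/PS1 library of 9 months, with 5.27 CPM in CD8 and 51.1 CPM in CD4 T cells. The share of cells with a *Gzma* UMI was lower in CD8 T cells of 2 of the 7 libraries, the Nlrp3KO APP/PS1 libraries of 3 months (2.38% of 42 CD8 and 7.14% of 14 CD4 T cells) and of 9 months (1.69% of 178 and 7.14% of 14). Over all 10 libraries together *Gzma* was at 74.1 CPM in CD8 and 62.2 CPM in CD4 T cells, and 55 of the 70 UMIs in CD4 T cells were in 1 cell of the WT library of 3 months, which was not fitted because it held 6 CD4 T cells. *Ifng* did not pass the test (34.1 ± 9.52 CPM in CD8 and 24.5 ± 24.0 CPM in CD4 T cells, log2 fold change 0.19, SE 0.37, adjusted p = 0.912). It was higher in CD8 T cells of 5 of 7 libraries.

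**Figure D3:**
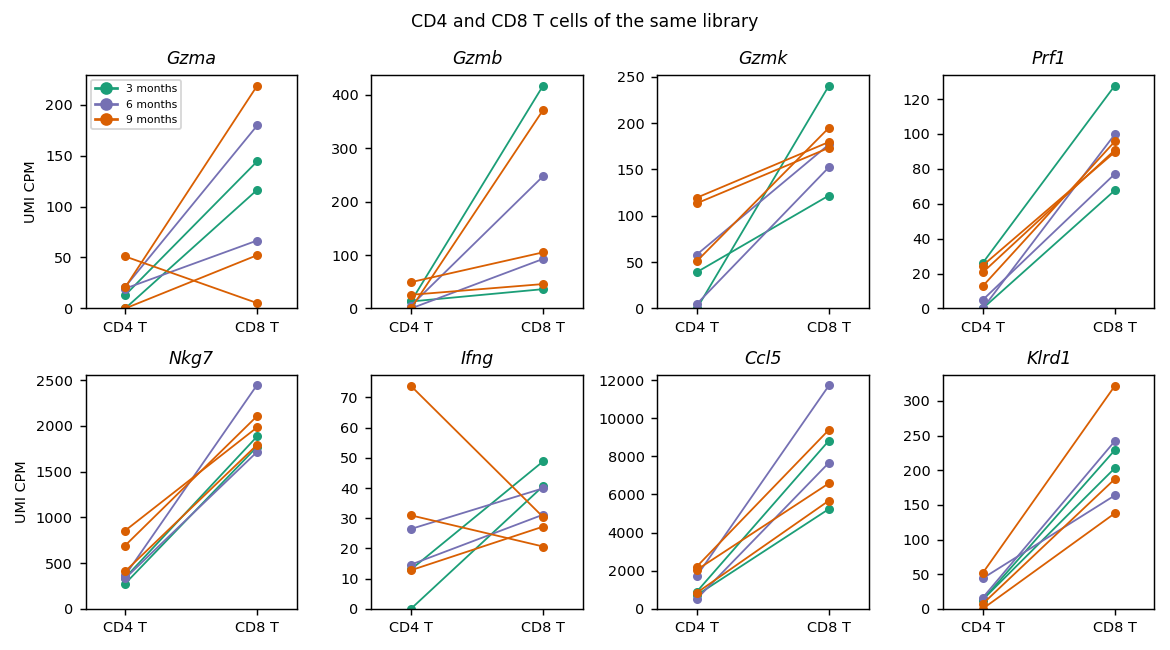
UMI CPM of the 8 genes (vertical axes, from 0) in CD4 and CD8 T cells, with a line for each of the 7 libraries that hold at least 10 cells of both kinds, colored by age. All lines but those of *Gzma* (6 of 7) and *Ifng* (5 of 7) rise from CD4 to CD8 T cells.

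Other genes of cytotoxic cells, from lists chosen with earlier results of these data known, were counted in the same fit. Of 13 NK receptor genes listed, 5 passed the filter on low counts, and all 5 were called as higher in CD8 T cells. Among them were *Klrk1* (187 and 24.1 CPM, log2 fold change 2.99, SE 0.26, adjusted p = 5.62e-10), which encodes NKG2D, and *Cd160* (3.30, SE 0.35, adjusted p = 1.94e-08). Genes of granule storage and release were called for 3 of 9, namely *Ctsw*, *Cst7* and *Ctsc*, a cathepsin, a cystatin and the cathepsin that activates granzymes. Of 9 transcription factors, 2 were called as higher, *Eomes* (83.6 and 4.92 CPM, log2 fold change 4.41, SE 0.44, adjusted p = 5.52e-09) and *Runx3* (1.27, SE 0.15, adjusted p = 2.10e-07), whereas *Tbx21*, which encodes T-bet, was not (0.99, SE 0.32, adjusted p = 0.0655). Of 9 effector cytokines and chemokines listed, 2 were tested, *Xcl1* and *Ccl4*, and both were called as higher. Of the naive T cell genes *Il7r* was called as lower, the remaining 4 not passing the test. A gene near 0 in CD4 T cells was tested only where its CD8 counts passed the filter on low counts. These shares of tested genes are therefore a description.

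T cells with a *Trdc* UMI and neither *Cd4* nor *Cd8* UMIs (125 cells), which include gamma-delta T cells, held less than CD8 T cells of all members but *Gzma*. They held 1.4 CPM of *Gzmk*, 5.6 CPM of *Ifng* and 806 CPM of *Ccl5*, compared to 178, 33.2 and 7545 CPM in CD8 T cells. *Gzmb* (64.6 and 139 CPM), *Prf1* (33.7 and 91.2 CPM), *Nkg7* (320 and 1946 CPM) and *Klrd1* (91.2 and 185 CPM) were lower too. *Gzma* was at 466 CPM in them, although only 3.2% of them held a UMI. The NK cells with a *Cd3e* or *Trac* UMI (94 cells) held less *Prf1* than those without (234 and 515 CPM) but more *Gzma* (5254 and 3135 CPM). Of these 94 cells, 31 came from the APP/PS1 library of 9 months. NK cells of that library held 4642 of the 12419 *Gzma* UMIs of the type. There *Gzma* was at 7329 CPM in all NK cells and 4982 CPM in those without such a UMI. The pooled *Gzma* order leans on this library, and whether it held in the others was not tested. NK cells with and without such a UMI held close levels of *Klrd1* (1068 and 1135 CPM) and *Gzmb* (1463 and 1453 CPM).

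To examine whether Nlrp3 deletion altered these genes, 5 pairs of an Nlrp3KO and an Nlrp3WT library of the same age and background were compared in T cells, with the pair as a block. Cells of 1 library are not replicates, so UMIs were summed per library, and since a library pools 3 brains, differences between single mice were not measured. None of the 8 genes was called, and neither was any of the 6507 genes tested (0%). With edgeR 197 genes had an unadjusted p under 0.05, none of the 8 among them, and DESeq2 called 1 gene. The median log2 fold change of the 8 genes was -0.20, that of all genes -0.01.

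*Gzma* in T cells of non-diseased mice was 327 CPM (Nlrp3WT) against 137 CPM (Nlrp3KO) at 3 months, 42.8 against 119 CPM at 6 months and 138 against 167 CPM at 9 months. In APP/PS1 mice it was 66.3 against 573 CPM at 3 months and 275 against 5.92 CPM at 9 months. It was higher in Nlrp3KO libraries of 3 of 5 pairs (log2 fold change -0.03, SE 0.90, adjusted p = 1.0). The groups overlapped. The log2 fold change was -0.89 without the APP/PS1 pair of 3 months and 0.97 without that of 9 months. It was -1.24 (SE 0.73, adjusted p = 1.0) without T cells with a *Trdc* UMI. Without cells of a doublet score over 0.5 the Nlrp3KO APP/PS1 library of 3 months held 68.5 CPM and the WT library of 9 months 10.3 CPM, and without the top 1% of T cells the 10 libraries ranged from 0 to 66.3 CPM. *Gzmb* was 149 CPM (Nlrp3WT) against 199 CPM (Nlrp3KO) in non-diseased mice at 3 months, 64.0 against 182 CPM at 6 months and 231 against 145 CPM at 9 months. In APP/PS1 mice it was 252 against 117 CPM at 3 months and 119 against 38.5 CPM at 9 months. The 3 pairs in which Nlrp3KO was lower include both APP/PS1 pairs (log2 fold change -0.37, SE 0.40, adjusted p = 1.0). Without the top 1% of T cells the direction turned in 2 of 5 pairs, the non-diseased ones of 3 months (63.9 CPM in Nlrp3WT against 43.7 CPM in Nlrp3KO) and of 9 months (74.8 against 114 CPM), and the APP/PS1 library of 3 months fell from 252 to 83.1 CPM.

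**Figure D4:**
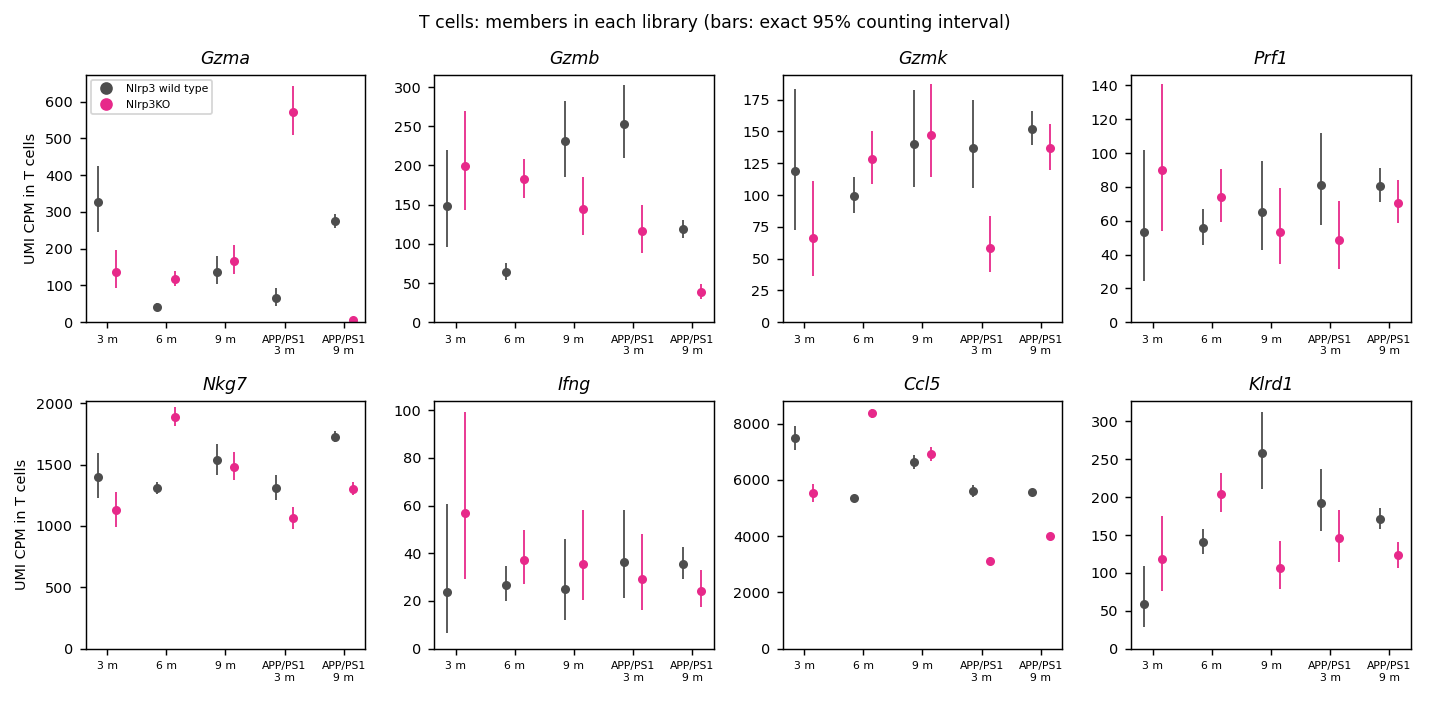
UMI CPM of the 8 genes in T cells (vertical axes, from 0) for each library, with Nlrp3WT (gray) and Nlrp3KO (pink) side by side for WT background at 3, 6 and 9 months (m) and APP/PS1 background at 3 and 9 months. Bars are exact 95% Poisson intervals, which cover counting error only. The 2 groups overlapped for all 8 genes, and *Gzma* ranged from 5.92 to 573 CPM, the library at 573 CPM holding 68.5 CPM without cells of a doublet score over 0.5.

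The difference between the Nlrp3 effect in APP/PS1 and in non-diseased mice was tested as an interaction. It was negative for all 8 genes and for 49.2% of all genes tested, and of the 8 it was furthest from 0 for *Gzmb* (-1.94 on the log2 scale, SE 0.53, adjusted p = 0.598 in edgeR). No member passed, whereas 4 of 6507 genes had an adjusted p under 0.05. The 2 APP/PS1 pairs stand against 3 non-diseased pairs. The makeup of the T cells moved with this contrast. T cells with a *Trdc* UMI made up 20.4% (Nlrp3KO) against 10.5% (Nlrp3WT) of T cells in APP/PS1 mice at 3 months and 18.3% against 2.38% at 9 months, whereas the shares were 12.1% against 11.1%, 7.14% against 8.11% and 3.53% against 3.28% in non-diseased mice at 3, 6 and 9 months. The CD8 share was lower in both Nlrp3KO APP/PS1 libraries (42.9% against 57.9% at 3 months and 64.0% against 74.6% at 9 months) and higher in the 3 non-diseased Nlrp3KO libraries (54.5% against 40.7%, 62.8% against 56.8% and 58.8% against 57.4%). The part of these shares in the interaction was not tested.

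The APP/PS1 and the non-diseased libraries of the same age and Nlrp3 genotype formed 4 pairs. None of the 8 genes was called in T cells, where 0.162% of 6174 genes were (0.0648% higher and 0.0972% lower in APP/PS1). *Ccl5* came closest, with 5609 CPM in APP/PS1 against 7482 CPM in WT mice at 3 months and 5568 against 6626 CPM at 9 months. With Nlrp3 deleted, it was 3118 against 5534 CPM at 3 months and 4022 against 6912 CPM at 9 months. APP/PS1 was lower in 4 of 4 pairs, and the groups overlapped, with 2 APP/PS1 libraries above the lowest non-diseased one (log2 fold change -0.50, SE 0.10, adjusted p = 0.111 in edgeR, between 3.55e-06 and 0.822 over all alternatives). *Gzmb* had a log2 fold change of -0.72 (SE 0.28, adjusted p = 0.615) and was lower in 3 of 4 pairs. Without the pair of Nlrp3WT libraries of 3 months this became -1.16 with an adjusted p of 0.0463, which is past both limits (0.00943 to 1.0 over all alternatives). Without the top 1% of T cells *Gzmb* was instead higher in APP/PS1 in 3 of 4 pairs, with 83.1 against 63.9 CPM and, with Nlrp3 deleted, 45.1 against 43.7 CPM at 3 months, and 84.0 against 74.8 CPM but 38.5 against 114 CPM at 9 months. The other 6 had log2 fold changes between -0.38 (*Gzma*) and 0.21 (*Prf1* and *Klrd1*).

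The list of 5 effector cytokines and chemokines tested gave 1 call in this comparison, *Il17a* (log2 fold change 3.17, SE 0.39, adjusted p = 0.00674), higher in 2 of 4 pairs. The 5 genes with the smallest adjusted p were *Cd163l1*, *Pclaf*, *Il17a*, *Cxcl10* and *Hist1h2ap*. T cells with a *Trdc* UMI made up 18.3% of T cells in the Nlrp3KO APP/PS1 library of 9 months and between 2.38% and 20.4% in the 10 libraries. Without T cells with a *Trdc* UMI, 2 genes were called in place of 10. The 8 genes kept their direction in that fit and none was called, *Ccl5* being at -0.46 (SE 0.11, adjusted p = 0.225) and *Gzmb* at -0.70 (SE 0.25, adjusted p = 0.557).

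The number of T cells behind these levels differed between the groups. At 9 months T cells made up 16.6% of the CD45+ cells in APP/PS1 and 2.36% in WT mice, and at 3 months 1.69% and 0.357%. The non-diseased libraries of 6 months, which have no APP/PS1 partner, held 6.14% (WT) and 4.65% (Nlrp3KO). The 4 APP/PS1 libraries exceeded their non-diseased partners by a mean of 6.43 percentage points (SD 6.63), or 3.82 points without the Nlrp3WT pair of 9 months. Flipping the signs of the pair differences gave an exact two-sided permutation p = 0.125, the smallest that 4 pairs allow. For Nlrp3KO minus Nlrp3WT the mean was -1.10 points (SD 1.86, with 2 of 5 pairs above 0) and the exact permutation p = 0.312, with 0.0625 the smallest possible. Without the APP/PS1 pair of 9 months the mean was -0.345 points.

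Libraries of 9 and 3 months of the same genotype were compared as 4 pairs, in which age and batch cannot be told apart. In T cells 1.17% of 6174 genes were called (0.324% higher and 0.842% lower at 9 months), none of them a member. *Nkg7* had an adjusted p under 0.05 but a log2 fold change under the limit. It went from 1403 to 1539 CPM in WT, from 1128 to 1485 CPM in Nlrp3KO, from 1311 to 1726 CPM in APP/PS1 and from 1062 to 1303 CPM in Nlrp3KO APP/PS1 mice, so that the older library was higher in 4 of 4 pairs while the groups overlapped (log2 fold change 0.48, SE 0.09, adjusted p = 0.0205 in edgeR, between 8.12e-05 and 0.115 over the alternatives). *Gzmk* was likewise higher in 4 of 4 pairs, with 144 ± 6.86 CPM at 9 months and 95.1 ± 38.7 CPM at 3 months (SD, n = 4; log2 fold change 0.81, SE 0.21, adjusted p = 0.0754). Its groups met at 137 CPM, and the adjusted p was 0.0291 without cells of a doublet score over 0.5 and between 0.000269 and 0.337 over all alternatives. CD8 T cells, which held more of both genes than CD4 T cells, made up a larger share of T cells at 9 months in 4 of 4 pairs, going from 40.7% to 57.4% in WT, from 54.5% to 58.8% in Nlrp3KO, from 57.9% to 74.6% in APP/PS1 and from 42.9% to 64.0% in Nlrp3KO APP/PS1 mice. The share of T cells with a *Trdc* UMI was lower at 9 months in 4 of 4 pairs (11.1% to 3.28%, 12.1% to 3.53%, 10.5% to 2.38% and 20.4% to 18.3%, in the same order), and so was *P2ry12*, a microglial gene, in T cells (23.8 to 15.0, 199 to 66.9, 30.0 to 16.7 and 109 to 2.96 CPM). Without T cells with a *Trdc* UMI the log2 fold change was 0.44 for *Nkg7* (SE 0.11, adjusted p = 0.0521) and 0.69 for *Gzmk* (SE 0.21, adjusted p = 0.119). The part of the CD8 share and of *P2ry12* in these values was not tested.

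Of 10 transcription factors tested in the same fit, *Eomes*, a T-box factor of cytotoxic cells, was called as higher at 9 months (71.3 and 34.6 CPM, log2 fold change 1.17, SE 0.27, adjusted p = 0.0447), and *Lef1*, a factor of naive T cells, as lower (log2 fold change -1.05). *Eomes* was higher in CD8 than in CD4 T cells, and the CD8 share of T cells was larger at 9 months, as given above. The part of that share in the *Eomes* value was not tested. Of 7 NK receptors 1 was called, *Klra7*, as lower (-3.02), and of 6 chemokine receptors 1, as lower, *S1pr1* (-1.23), which encodes a receptor for the egress of lymphocytes. *Il17a* was called as higher (4.81) among 5 effector cytokines and chemokines. None of 13 genes of granule storage and release was called in edgeR, where 6 of them had an unadjusted p under 0.05, as did 958 of all 6174 genes.

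In NK cells the Nlrp3 genotypes and the APP/PS1 groups were compared on fewer cells, from 10 in the Nlrp3KO APP/PS1 library of 9 months to 149 in that of 3 months. *Gzmk* was too low to be tested. Between Nlrp3 genotypes 0.17% of 5290 genes were called (0.0756% higher and 0.0945% lower in Nlrp3KO), none of the 7 members tested among them. *Ccl5* was lower in Nlrp3KO libraries of 4 of 5 pairs, with 7177 ± 2116 CPM against 9379 ± 1170 CPM (SD, n = 5; log2 fold change -0.46, SE 0.12, adjusted p = 0.245, and between 3.30e-06 and 1.0 over all alternatives). The fold stayed under the limit in all of them. *Ifng* was higher in 4 of 5 pairs (104 ± 56.3 against 62.9 ± 17.8 CPM, log2 fold change 0.80, SE 0.25, adjusted p = 0.606), and passed both limits without the non-diseased pair of 3 months (1.04, adjusted p = 0.0436; up to 1.0 over all alternatives). *Ccl4*, another chemokine of activated NK cells, was called as higher in Nlrp3KO libraries (975 and 444 CPM, log2 fold change 1.02, SE 0.19, adjusted p = 0.00840). The called genes of smallest adjusted p in this edgeR fit were *Gm8797*, *Stmn1*, *Pclaf*, *Trac* and *Apoe*. Of these, *Trac* was lower in Nlrp3KO (27.2 against 118 CPM). Without NK cells with a *Cd3e* or *Trac* UMI no member was called, *Ccl5* was at -0.53 (SE 0.14, adjusted p = 0.273) and *Ifng* at 0.83 (SE 0.26, adjusted p = 0.567), and *Gzmb* went from -0.11 to 0.13. The cells left for this fit numbered 7 in the Nlrp3KO APP/PS1 library of 9 months, under the minimum of 10 cells per library.

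Between APP/PS1 and non-diseased NK cells, edgeR called none of 4257 genes (0%), 124 genes had an unadjusted p under 0.05, with no member among them, and DESeq2 called 0. The highest *Gzma* level, 7329 CPM, was that of the APP/PS1 library of 9 months, in which 51.5% of 99 NK cells had a UMI with a median of 93 in those cells. The other 9 libraries ranged from 1157 to 3793 CPM and from 10.0% to 43.0% of NK cells. In NK cells without a *Cd3e* or *Trac* UMI, *Gzma* was at 4982 CPM in the APP/PS1 library of 9 months, at 104 and 55.6 CPM in the WT and Nlrp3KO libraries of that age, and between 1838 and 3894 CPM in the other 7. The Nlrp3KO APP/PS1 library of 9 months held 7 such cells, under the minimum of 10 cells per library. *Gzma* had a log2 fold change of 0.15 (SE 0.35, adjusted p = 1.0), -0.56 without the Nlrp3WT pair of 9 months, and 1.39 (SE 0.64, adjusted p = 1.0) without NK cells with a *Cd3e* or *Trac* UMI.

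The genes whose log2 levels were most like those of a member were taken over 30 profiles, each 1 of the 4 lymphocyte types in 1 library, among 9994 genes. Profiles of 1 library or type are not independent, and r is given as a description. For *Klrd1* these were *Klrk1* (r = 0.99), *Xcl1* and *Ptprc*. For *Gzmb* they were *Klrd1* (r = 0.97), *Xcl1* and *AW112010*. For *Ifng* they were *Tbx21* (r = 0.97), *Samd3* and *Itga1*, and for *Nkg7* *Itga1* (r = 0.98), *Cd160* and *Fasl*. *Ccl5* was most like *Nkg7* (r = 0.95), *Anxa2* and *Cd160*, and *Prf1* most like *Itgb2* (r = 0.96), *Gzmb* and *Klrd1*. For *Gzma* they were *Klrb1f* (r = 0.95), a receptor gene of NK cells, *Ccl3* and *Reep5*. *Gzmk* was most like *Sdcbp2* (r = 0.93), *Cd4* (r = 0.92) and *Cd5* (r = 0.92), the last 2 of which encode T cell surface proteins. As the profiles span cell types, this r does not say which T cells held *Gzmk*. Within T cells it was higher in CD8 than in CD4 T cells.

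Lymphocyte RNA that spills into other droplets adds UMIs to cells that do not express a gene, and the members found in microglia were therefore examined apart. In 40547 microglia, 49 cells held *Gzma*, 30 *Gzmb*, 2 *Gzmk*, 22 *Prf1*, 87 *Nkg7* and 2 *Ifng*, at most 0.215% of microglia for any of these 6. Median depth was 4506 UMIs, against 5810 in T cells. Per 1000 UMIs of a gene in T, NK and NKT cells, microglia held 3.55 of *Gzma* (exact 95% Poisson interval 2.63 to 4.68), 3.47 of *Nkg7* (2.78 to 4.28) and 4.73 of *Gzmb* (3.21 to 6.71), and 3.83 (2.65 to 5.35) of *Cd3e*, a gene of T cells.

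*Ccl5* and *Klrd1* stood apart from this level. Microglia held 29.8 *Ccl5* UMIs (28.7 to 30.9) and 333 *Klrd1* UMIs (319 to 348) per 1000 in lymphocytes, and these intervals do not meet those of the other 6 genes. A *Klrd1* UMI was found in 1726 microglia (4.26%) and a *Ccl5* UMI in 784 (1.93%), of which 3 and 1 held a *Cd3e* or *Trac* UMI. A doublet score over 0.5 was given to 10.6% of the *Klrd1*-positive and 12.8% of the *Ccl5*-positive microglia, and to 7.63% of all microglia. Microglial *Klrd1* was 9.57 ± 1.66 CPM over the 10 libraries (SD; lowest 6.73, highest 12.9), and the ratio to lymphocytes ranged from 60.5 per 1000 in the APP/PS1 library of 9 months to 1914 per 1000 in the WT library of 3 months. Lymphocytes held 1470 *Klrd1* UMIs in the first of these libraries and 186 in the second, so that the ratio moves with the number of lymphocytes. The *Ccl5* ratio ranged from 7.59 to 120 per 1000 in the same libraries, and was above that of *Nkg7* in 10 of 10. Microglia of the WT library of 3 months held 11.8 CPM of *Ccl5*, from 57 cells, and 6.49 CPM without cells of a doublet score over 0.5.

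**Figure D5:**
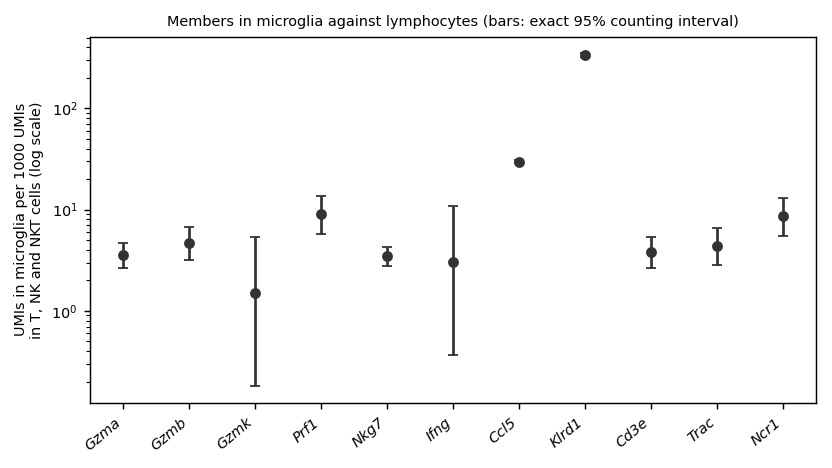
UMIs of each gene in microglia per 1000 of its UMIs in T, NK and NKT cells (vertical axis, logarithmic), for the 8 members and for the lymphocyte genes *Cd3e*, *Trac* and *Ncr1*, with exact 95% Poisson intervals. Over the 10 libraries together *Ccl5* (29.8) and *Klrd1* (333) lie above the other genes, which reach at most 9.07, while single libraries ranged from 7.59 to 120 for *Ccl5*.

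In the microglial states of the annotation, *Ccl5* and *Klrd1* followed different orders. *Ccl5* was 108 ± 67.9 CPM in interferon-response microglia (IRM), 59.0 ± 45.2 CPM in disease-associated microglia (DAM), 25.6 ± 19.0 CPM in the transitory state (TM) and 3.92 ± 1.85 CPM in homeostatic microglia (HM; SD, n = 10 libraries each). These levels came from few cells, as a *Ccl5* UMI was found in 6.43% of IRM, 5.01% of DAM, 3.89% of TM and 1.23% of HM. No minimum number of cells per library was set for these means. Over all libraries together DAM held 41.5 CPM. The ranges of IRM, DAM and TM overlapped. IRM ranged from 9.47 to 232 CPM and HM from 1.84 to 7.98 CPM, without overlap. *Klrd1* was at 8.30 ± 3.85, 11.7 ± 8.25, 4.67 ± 2.64 and 10.1 ± 2.20 CPM in the same states, with overlapping ranges. The 6 other genes were at most 0.747 CPM in any of the 6 states. As states are clusters of these counts, no test was made.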

How the data were processed

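Whole-transcriptome profiles of CD45+ brain cells were taken from the deposited matrix of UMI counts per gene and cell, which the authors made with Cell Ranger on mm10 (per the submitters' processing notes). The authors removed outlier cells with Scater and annotated cell types after Seurat and Harmony integration, and these annotations were used here. The deposited doublet score is a fraction per cell, given by the authors with no tool named in the sources used here. The deposited mitochondrial values are percentages of a cell's UMIs, which the authors used in their cell filter. 2 library names (6897 cells) matched no sample label used here and were left out. Doublets were kept, and cells with a score over 0.5 were left out as an alternative. Cells were dissociated with transcription blocked by actinomycin D.

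CPM are UMIs of a gene per 1000000 UMIs, summed over the cells of a type. Shares of cells with a UMI were also calculated after thinning each cell to 1500 UMIs. Poisson and Clopper-Pearson 95% intervals, and the limit of 3 counts for a count of 0, cover counting error only. Groups of at least 10 cells per library were compared as summed counts with edgeR 4.0.16 and limma 3.58.1 in R 4.3.3 (filterByExpr, TMM, quasi-likelihood F test), with the pair as a block (libraries that differ only in Nlrp3 genotype, in APP/PS1 background or in age) or, for CD8 against CD4 T cells, the library, Benjamini-Hochberg adjustment over all genes tested, and calls at an adjusted p below 0.05 with a log2 fold change beyond 1. Each library is a pool of 3 brains and the only one of its genotype and age, so p-values measure the spread between pairs of libraries. DESeq2 1.42.0, other size factors, no filter, additive covariates, cell filters and leaving out each pair were the alternatives. Values were computed with Python 3.11.15, numpy 2.4.6, scipy 1.17.1 and pandas 2.3.3, and the fits were tested on simulated data. Gene coordinates are from GENCODE M21 and promoters from RefSeq (GRCm38.p6).

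The 8 members and all gene lists were chosen with earlier results of these data known. The text names the members, the list genes with the largest summed counts among those called, the 5 genes of smallest adjusted p in a T cell comparison, and the 3 genes most like each member among genes with at least 50 UMIs. The fits in NK cells, the *Trdc* and CD3-positive NK subsets, the interaction, and the fits without *Trdc* or CD3-positive cells were added after seeing the data. The leading genes of the Nlrp3 comparison in NK cells, *Trac* among them, and the cell types other than lymphocytes and microglia were named after their values were seen.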

Additional observations from a re-analysis of the deposited data

How the results depend on the processing

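Of 512 values of the 8 genes under an alternative, 465 kept their direction and call, 45 changed direction, and 2 were called that were not before (*Gzmb* in APP/PS1 T cells and *Ifng* in Nlrp3KO NK cells, given above). All 93 of CD8 against CD4 T cells kept both. The causes were not tested.

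Counts of genes called moved as follows. For Nlrp3 in T cells (0), DESeq2 called 1, no filter on low counts 11, and leaving out 1 pair 0 to 8. For APP/PS1 in T cells (10), DESeq2 called 6, no filter 41, without doublets 5, additive covariates 0, without *Trdc* T cells 2, and leaving out 1 pair 0 to 10. For age in T cells (72), DESeq2 called 40, no filter 184, the adjusted p alone 165, and leaving out 1 pair 26 to 62. For Nlrp3 in NK cells (9), DESeq2 called 2, no filter 22, and leaving out 1 pair 3 to 14. For APP/PS1 in NK cells (0), no filter gave 2 and leaving out 1 pair 0 to 2. For CD8 against CD4 T cells (144), no filter gave 245.

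These log2 fold changes reversed. For Nlrp3 in T cells, *Ifng* was -0.029 without doublets and *Gzma* 0.072 with additive covariates. For APP/PS1 in T cells, *Nkg7* was -0.0035 with DESeq2, -0.0030 with its size factors and -0.037 without doublets, and *Gzma* was 0.25 with additive covariates. In NK cells without CD3-positive cells, *Gzmb* was 0.13 for Nlrp3, and for APP/PS1 *Prf1* was 0.32, *Nkg7* 0.042 and *Ccl5* 0.22. For APP/PS1 in NK cells, *Ifng* was -0.22 with DESeq2, -0.027 without doublets and -0.043 with additive covariates, *Klrd1* was -0.020 without doublets, and *Gzmb* 0.032 with additive covariates.

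Leaving out 1 pair moved log2 fold changes through 0 for these. For Nlrp3 in T cells, *Gzma* ranged from -0.89 to 0.97, *Gzmb* from -0.94 to 0.020, *Prf1* from -0.28 to 0.071 and *Ifng* from -0.16 to 0.36. For APP/PS1 in T cells, *Gzma* ranged from -1.35 to 0.54, *Ifng* from -0.38 to 0.14, *Klrd1* from -0.078 to 0.64 and *Nkg7* from -0.060 to 0.060. For age, *Gzma* ranged from -2.09 to 0.60, *Prf1* from -0.0061 to 0.42, *Ifng* from -0.16 to 0.065 and *Klrd1* from -0.029 to 0.55. For Nlrp3 in NK cells, *Gzmb* ranged from -0.37 to 0.21 and *Prf1* from -0.30 to 0.0077. For APP/PS1 in NK cells, *Ccl5* ranged from -0.37 to 0.14, *Gzma* from -0.56 to 0.63, *Gzmb* from -0.35 to 0.25, *Ifng* from -0.82 to 0.34, *Klrd1* from -0.041 to 0.13, *Nkg7* from -0.16 to 0.0034 and *Prf1* from -0.40 to 0.031.

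Differences between single mice were not measured.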

Other observations

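The members held by dendritic cell types are given as values with no test, since the cell types are clusters of the same counts. Migratory dendritic cells (17 cells) held 18532 CPM of *Ccl5* and 174 CPM of *Klrd1*. Conventional type 1 dendritic cells (9 cells) held 93.0 CPM of *Klrd1* and no *Ccl5* UMI, which allows up to 25.4 CPM, and plasmacytoid dendritic cells (102 cells) 359 CPM of *Klrd1* and no *Ccl5* UMI, which allows up to 3.23 CPM. In conventional type 2 dendritic cells (189 cells), 12 cells held *Ccl5* (255 CPM over the type) and 147 held *Klrd1* (375 CPM). Border-associated macrophages (725 cells) held 125 CPM of *Ccl5*, from 60 cells, and 15.3 CPM of *Klrd1*, from 39 cells, whereas the macrophages annotated with *Lyve1* held 5.42 and 0.452 CPM. Of 79 neutrophils, 2 held all 54 *Ccl5* UMIs of the type, and 14 held its 39 *Nkg7* UMIs (38.6 CPM). In these macrophages and neutrophils, *Prf1* was at most 1.98 CPM.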
